A study of Mus musculus with 4 samples.

Results

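The hypoxia and glycolysis genes are 33 genes chosen by name, in 2 lists that were read both gene by gene and as sums. The glycolytic list holds 16 genes of glucose uptake, glycolysis and the handling of pyruvate and lactate. The hypoxia-response list holds 17 genes known to be induced under low oxygen. All 33 were found among the 33696 features of each library. They were read in 21098 kept cells of 24489 barcodes from 4 single-cell RNA-seq libraries of cancer-associated fibroblasts (CAF), as unique molecular identifiers (UMIs, which count captured RNA molecules) per 1000000 UMIs of the cells compared (CPM). Cells were kept with 500 to 6000 genes, at most 10% mitochondrial UMIs, at least 3 UMIs of the collagen genes Col1a1, Col1a2 and Col3a1 together, and none of Ptprc (a leukocyte gene) or Pax3 (expressed by melanoma cells).

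B16-F1-OVA melanoma cells, a mouse melanoma line that expresses ovalbumin, were placed in the peritoneal cavity (400000 cells) of Cxcl13-cre-tdTomato X R26R-eGFPflox mice, host strain C57Bl/6, and tumors were taken on day 14. Every library came from such mice, the tdTomato-neg eGFP-neg one included. The Cxcl13 promoter drives both tdTomato and cre, so tdTomato marks cells in which the promoter was active, and eGFP marks cells in which cre had acted at any earlier time. From CD45neg CD31neg PDPNhi cells 4 populations were taken, each as 1 library, and values are given below in this order: tdTomato-neg eGFP-neg, tdTomato-neg eGFP+, tdTomato+ eGFP-neg and tdTomato+ eGFP+. The number of mice behind a library and their age were not stated, and both sexes were used in the study.

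The libraries kept 9866, 5745, 4634 and 853 cells with a median of 5776, 8397, 9117.5 and 8732 UMIs, so the tdTomato-neg eGFP-neg cells were the shallowest and the tdTomato+ eGFP+ library was the smallest. Their make-up also differed. By the balance of matrix markers (Dcn, Lum, Postn and others) against mesothelial markers (Msln, Upk3b, Krt19 and others), 58.6%, 34.7%, 74.8% and 68.2% of cells were matrix-leaning and the rest mesothelial-leaning. This balance is a continuous score, the log2 ratio of mesothelial to matrix marker UMIs with a constant added to each. The cut lay at -2.78, far on the matrix side, so the class names are relative. Cells with more matrix than mesothelial UMIs could be called mesothelial-leaning, as could cells with few UMIs of either list. Within 0.5 log2 units of the cut lay 2937 cells (13.9%). Cells with at least 3 UMIs of Serpinb2 (a serpin inhibitor of plasminogen activators) and Ereg (an EGF receptor ligand), called Serpinb2/Ereg-positive, made up 29.0%, 50.7%, 69.3% and 67.2%. Cells with at least 3 UMIs of Cxcl13, the B cell chemoattractant, made up 7.13%, 9.09%, 51.1% and 27.7%. These shares are the sizes of the classes compared below, and they depend on depth, which differed between libraries.

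Summed markers of other cell types were low in the kept cells, apart from melanoma markers in 1 library. All 7 melanoma markers were detected in every library, with summed levels of 199, 32.0, 44.1 and 25.8 CPM, and Mlana alone reached 96.0 CPM in the tdTomato-neg eGFP-neg library. The 9 immune markers summed to 47.5, 34.4, 59.0 and 16.8 CPM and were led by Fcer1g, while S100a9 was at 0 in all libraries but tdTomato-neg eGFP-neg. The 5 endothelial markers summed to at most 11.2 CPM and the 5 pericyte markers to at most 14.2 CPM. The 10 matrix markers, of which Dcn carried the most UMIs, summed to 5886, 4112, 5857 and 5387 CPM. Some library folds in cells with no melanoma or immune marker UMI are given below. Beyond these values, how far the melanoma RNA took part in the library results was not tested.

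Glycolysis breaks glucose down to pyruvate, and lactate dehydrogenase and the lactate exporter let it run without oxygen. When oxygen is short, the prolyl hydroxylases of the Egln family no longer mark the alpha subunits of hypoxia-inducible factor (HIF) for destruction by the VHL ligase, and HIF bound to Arnt switches on most glycolytic enzymes together with genes for vessel growth (Vegfa, Adm), mitophagy (Bnip3, Bnip3l), collagen prolyl hydroxylation (P4ha1, P4ha2), pH control (Car9) and its own feedback inhibitors (Egln1, Egln3). Fibroblasts in solid tumors are a known site of this response.

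The first question was how the genes stood in the 4 sorted populations. The glycolytic sum was 7001, 7902, 6966 and 6790 CPM, highest in tdTomato-neg eGFP+ cells. Its log2 folds over tdTomato-neg eGFP-neg cells were 0.17, -0.0071 and -0.044. The hypoxia-response sum was 1731, 2067, 2140 and 2033 CPM, so all 3 reporter libraries stood above tdTomato-neg eGFP-neg, by 0.26 (95% interval 0.24 to 0.27), 0.31 (0.29 to 0.32) and 0.23 (0.21 to 0.25) on the log2 scale. With 1 library per population there was no test, and these exact binomial intervals cover counting error only. The 3 folds share the tdTomato-neg eGFP-neg library.

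Single genes were called different when their log2 fold passed 0.25. In tdTomato-neg eGFP+ cells 20 of 33 genes were higher and 1 lower, against 27.9% higher and 12.4% lower of all 9818 genes with at least 5 CPM. In tdTomato+ eGFP-neg cells 17 were higher and 2 lower (background 32.7% and 17.9%), and in tdTomato+ eGFP+ cells 12 were higher and 5 lower (19% and 21.3%). The median fold of the 33 genes was 0.30, 0.25 and 0.15, beside 0.10, 0.10 and -0.02 for all genes.

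Among genes of glucose entry and lactate exit, Slc2a1, the main glucose transporter of most cells, stood at 56.0, 83.8, 105 and 78.6 CPM. Slc16a3, the lactate exporter, stood at 83.3, 127, 121 and 115 CPM. For both, each reporter library lay above tdTomato-neg eGFP-neg with intervals that did not overlap. The liver-type phosphofructokinase gene Pfkl (49.8, 75.2, 77.7 and 70.2 CPM) and Pdk1 (15.8, 23.7, 25.1 and 20.6 CPM), a kinase that inhibits pyruvate dehydrogenase, had the same order against tdTomato-neg eGFP-neg, but in cells of 8000 to 12000 UMIs the tdTomato+ eGFP+ fold of Pdk1 turned to -0.24.

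The abundant enzymes did not move alike. Log2 folds were 0.43, 0.21 and 0.15 for Pkm and 0.25, 0.20 and 0.13 for Ldha, positive in each reporter library. Those of Tpi1 (0.30, 0.02 and -0.05) and Pgk1 (0.19, -0.05 and -0.09) changed sign between libraries. Gapdh, a glycolytic dehydrogenase that carried the most UMIs of the sum, stood at 2185, 2073, 1596 and 1710 CPM, lower in both tdTomato+ libraries. Its log2 folds were -0.08, -0.45 and -0.35, and 0.23, -0.17 and -0.08 when only matrix-leaning cells were read. In the Pax3-positive cells left out of the analysis Gapdh reached 6911 CPM, and in kept cells without any melanoma or immune marker UMI its folds were 0.03, -0.33 and -0.20.

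In the hypoxia-response list, Vegfa and Egln3 had the largest folds of the 33 genes in both eGFP+ libraries, and Vegfa in tdTomato+ eGFP-neg cells was the only gene past 1 in any library. Past 1, 0.662%, 2.08% and 1.66% of all genes were higher and 2.66%, 2.32% and 2.94% lower in the 3 reporter libraries. Vegfa, which encodes the vessel growth factor VEGF-A, stood at 96.0, 167, 219 and 181 CPM, and its folds of 0.80 (0.75 to 0.84), 1.19 (1.15 to 1.23) and 0.91 (0.83 to 0.99) stood beside 1.01, 1.13 and 0.88 in matrix-leaning cells and 0.71, 1.16 and 0.81 in mesothelial-leaning cells. Egln3, an oxygen-sensing prolyl hydroxylase, stood at 61.2, 122, 106 and 118 CPM, with folds of 1.64, 1.47 and 1.57 in matrix-leaning cells and 0.45, 0.33 and 0.61 in mesothelial-leaning cells.

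Other genes of this list were less uniform. Adm, which encodes the vasodilator peptide adrenomedullin, stood at 65.8, 47.5, 78.4 and 46.1 CPM, below tdTomato-neg eGFP-neg in both eGFP+ libraries. This order depended on the cells read: the tdTomato-neg eGFP+ fold turned to 0.10 in mesothelial-leaning cells and to 0.040 in cells of 8000 to 12000 UMIs, and both eGFP+ folds turned, to 0.31 and 0.67, in cells with UMIs of Y-linked genes and none of Xist. Car9, a cell-surface carbonic anhydrase, stood at 15.1, 16.9, 16.1 and 9.5 CPM and was lowest in tdTomato+ eGFP+ cells. In matrix-leaning cells alone the Car9 folds were 1.17, 0.78 and 0.18, and in mesothelial-leaning cells -0.68, -0.82 and -2.36.

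**Figure D1:**
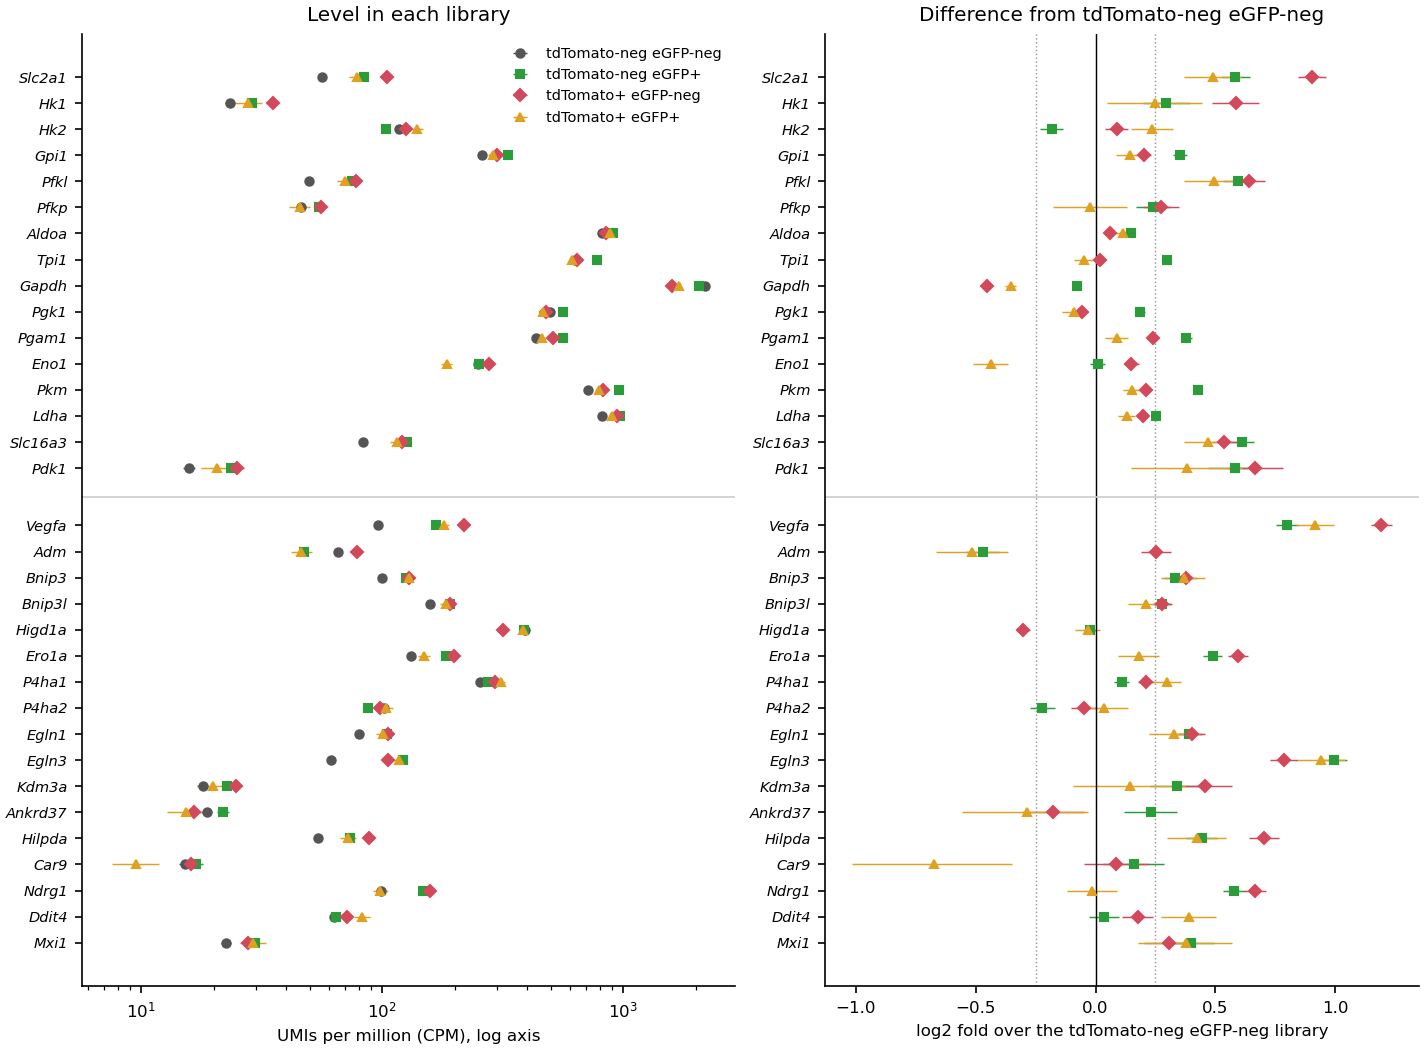
Left, level of each gene in the 4 libraries (CPM, log axis; bars are exact 95% Poisson intervals); right, log2 fold of each reporter library over tdTomato-neg eGFP-neg (bars are exact 95% intervals for counting error; dotted lines at 0.25 on either side of 0). Glycolytic genes are above the grey line and hypoxia-response genes below it. Vegfa and Egln3 lie farthest to the right in both eGFP+ libraries, and Gapdh lies to the left in both tdTomato+ libraries.

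The fold between libraries turned on which cells were read. In matrix-leaning cells the glycolytic sum was higher than in tdTomato-neg eGFP-neg by 0.48, 0.25 and 0.23 and the hypoxia-response sum by 0.56, 0.40 and 0.37. In these cells 27, 26 and 23 of the 33 genes were past 0.25 higher, against 20%, 29.8% and 18.5% of all genes, and 1 gene was lower in each library (Adm, P4ha2 and Adm), against 19.1%, 18.5% and 25.3%. In mesothelial-leaning cells the glycolytic folds were -0.12, -0.38 and -0.44 and the hypoxia-response folds 0.02, 0.04 and -0.18. Here 8, 13 and 5 genes were higher, against 33.7%, 47.1% and 37.6% of all genes, and 4, 8 and 16 lower, against 8.04%, 18.6% and 18.1%. Vegfa, Pdk1, Egln3 and Kdm3a were among the higher genes in each library, and Gapdh, Eno1, Higd1a and Car9 among the lower. In mesothelial-leaning cells the median fold of the 33 genes was 0.09, 0.04 and -0.24, beside 0.14, 0.21 and 0.12 for all genes, and in matrix-leaning cells 0.62, 0.44 and 0.34, beside 0.01, 0.07 and -0.05. The share of Serpinb2/Ereg-positive cells was also lowest in the tdTomato-neg eGFP-neg library, which was the shallowest. Its part in these folds was not tested.

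The HIF machinery and the wider pathway were read in the same way. Hif1a, the oxygen-regulated HIF subunit, stood at 192, 161, 226 and 221 CPM, and Epas1, which encodes HIF-2 alpha, at 21.0, 23.1, 40.8 and 36.7 CPM, higher in both tdTomato+ libraries. Of 33 other hypoxia-induced genes, 30 passed 5 CPM, and 17, 18 and 13 of them were higher in the 3 reporter libraries, with 4, 0 and 4 lower, where 27.9%, 32.7% and 19% of all genes were higher and 12.4%, 17.9% and 21.3% lower. Nos2, which makes nitric oxide, stood at 18.4, 53.0, 93.9 and 70.1 CPM, and Gbe1, the glycogen branching enzyme, stood at 43.9, 93.8, 119 and 94.8 CPM. Of other glycolysis genes 9, 5 and 6 were higher and 2, 4 and 3 lower, of 17, 16 and 17 that passed, and in tdTomato+ eGFP-neg cells the share of higher genes was close to that of all genes.

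The next question was whether the genes differed by cell state within a library. The clearest difference was with Serpinb2/Ereg. In Serpinb2/Ereg-positive cells the glycolytic sum was 8630, 8510, 7581 and 7241 CPM, against 5401, 6797, 4621 and 5454 CPM in cells with no UMI of either gene, a mean log2 fold of 0.53 ± 0.19 (SD, n = 4 libraries). The hypoxia-response sum was 2223, 2382, 2366 and 2208 CPM against 1292, 1496, 1340 and 1487 CPM, a mean log2 fold of 0.71 ± 0.11. In either sum the 4 positive values lay above the 4 zero values.

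Of the 33 genes, 30 rose in Serpinb2/Ereg-positive cells and 0 fell, at an adjusted p under 0.05 by edgeR's quasi-likelihood test with library as a block, where 8.14% of 14640 genes rose and 7.92% fell. None of the 33 fell at an unadjusted p under 0.05 either, and DESeq2 also called 30 higher and 0 lower. The median fitted fold of the 33 genes was 0.78, beside -0.01 for all genes tested. The libraries are different sorted populations and not repeats of one, so these p-values set the mean difference against its spread over populations. The Serpinb2/Ereg class and the 33 genes were chosen with earlier results of these data known. The counts and p-values are therefore not independent support for a link between them. Positive cells were also deeper, with a median of 9928.5, 10983, 10198 and 9846 UMIs against 4021, 5569, 6430.5 and 5687 in zero cells, and the same 30 genes were called when only cells of 8000 to 12000 UMIs were read or when cells were thinned to 2000 UMIs, which left out 1483, 539, 199 and 74 shallower cells, and the rest were split into those with at least 1 Serpinb2 or Ereg UMI and those with 0.

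Of the 16 glycolytic genes 15 rose, led by those of transport. Slc2a1 was 81.2, 105, 123 and 91.3 CPM in positive and 34.1, 47.5, 42.7 and 42.6 CPM in zero cells (mean log2 fold 1.25 ± 0.19, adjusted p = 5.52e-05). Slc16a3 was 124, 149, 140 and 128 CPM against 43.7, 84.9, 50.7 and 71.3 CPM (1.16 ± 0.38, adjusted p = 0.000497). In neither gene did positive and zero libraries overlap.

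The enzymes between them rose by smaller amounts. Ldha, which turns pyruvate into lactate, was 1036, 1073, 1026 and 960 CPM against 608, 788, 617 and 697 CPM (0.60 ± 0.17, adjusted p = 0.000485). Gapdh was 2576, 2179, 1712 and 1799 CPM against 1798, 1907, 1166 and 1535 CPM, where the groups overlapped between libraries but positive cells were higher within each of the 4 (0.37 ± 0.19, adjusted p = 0.0030). The platelet-type phosphofructokinase gene Pfkp was the exception, at 46.1, 53.7, 56.5 and 47.0 CPM against 47.3, 53.7, 52.7 and 43.4 CPM (0.045 ± 0.075, adjusted p = 0.166).

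Of the 17 hypoxia-response genes 15 rose. Bnip3, a mitochondrial receptor for mitophagy, was 157, 158, 150 and 147 CPM against 50.7, 69.3, 57.8 and 65.1 CPM (1.34 ± 0.21, adjusted p = 5.52e-05). Hilpda, a lipid droplet protein that slows fat breakdown, was 81.0, 94.0, 101 and 86.1 CPM against 30.9, 39.2, 44.1 and 31.8 CPM (1.32 ± 0.11, adjusted p = 3.16e-05). Ero1a, the oxidase of disulfide formation in the endoplasmic reticulum, was 209, 237, 230 and 170 CPM against 67.0, 91.6, 92.3 and 82.9 CPM (1.34 ± 0.25, adjusted p = 5.85e-05). In all 3 genes every positive library stood above every zero library.

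The hypoxia-response genes that did not pass were Adm and Kdm3a, a histone demethylase. Adm was 50.6, 57.8, 80.5 and 52.7 CPM in positive and 89.9, 32.0, 88.0 and 31.8 CPM in zero cells, lower in positive cells of both eGFP-neg libraries and higher in both eGFP+ libraries (0.16 ± 0.79, adjusted p = 0.675). In cells of 8000 to 12000 UMIs Adm was called higher. Kdm3a was 18.0, 22.4, 24.8 and 21.2 CPM against 17.8, 20.9, 21.4 and 15.5 CPM (0.19 ± 0.19, adjusted p = 0.092).

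The remaining hypoxia-response genes rose by mean folds between 0.34 (P4ha1) and 1.35 (Car9). Car9 was 24.2, 20.0, 19.0 and 11.1 CPM against 7.09, 11.3, 5.49 and 5.43 CPM (1.35 ± 0.50, adjusted p = 0.00112). Vegfa was 125, 195, 245 and 198 CPM against 70.1, 114, 126 and 139 CPM (0.77 ± 0.18, adjusted p = 0.000239), so that the zero cells of the tdTomato+ eGFP+ library held more Vegfa than the positive cells of the tdTomato-neg eGFP-neg library. Ndrg1, a stress-induced differentiation gene, rose by 1.04 ± 0.34 (adjusted p = 0.000306), and Ddit4, an inhibitor of mTORC1 that the ATF4 stress pathway also induces, by 0.73 ± 0.13 (adjusted p = 0.000304).

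In the wider lists, 19 of 32 other hypoxia-induced genes tested rose and 1 fell. Among the 8 largest by fitted log2 fold were Nos2 (3.92), Car12 (2.59), Stc2 (2.55), Fam162a (1.68), Pgf (1.47), Gbe1 (1.39) and Rsbn1 (1.30), with edgeR adjusted p-values of at most 0.000674. The gene that fell was Loxl4, a lysyl oxidase (-0.95, adjusted p = 0.0298). Of 22 other glycolysis genes Slc2a3, Pgm1, Pfkfb3 and Aldoc rose and Ldhb, the lactate dehydrogenase subunit that favors pyruvate, fell (-0.59, adjusted p = 0.0152). Hif1a rose by 0.50 (adjusted p = 0.0101), and it was the only one of the 8 HIF machinery genes called.

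Markers of other cells and of stress were read beside these results. Melanoma markers summed to 133, 27.2, 32.7 and 26.8 CPM in positive and 266, 49.8, 129 and 18.6 CPM in zero cells, and in cells with no melanoma or immune marker UMI the same 30 genes rose. Dissociation and immediate early genes summed to 3769, 3878, 4384 and 4235 CPM against 4443, 3882, 4312 and 4149 CPM, and 6 ATF4 stress genes to 142, 157, 161 and 121 CPM against 143, 158, 153 and 110 CPM. Neither list had the same direction in all 4 libraries. Mesothelial markers were lower in positive cells of every library, at 827, 796, 349 and 323 CPM against 1138, 2063, 592 and 1135 CPM.

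**Figure D2:**
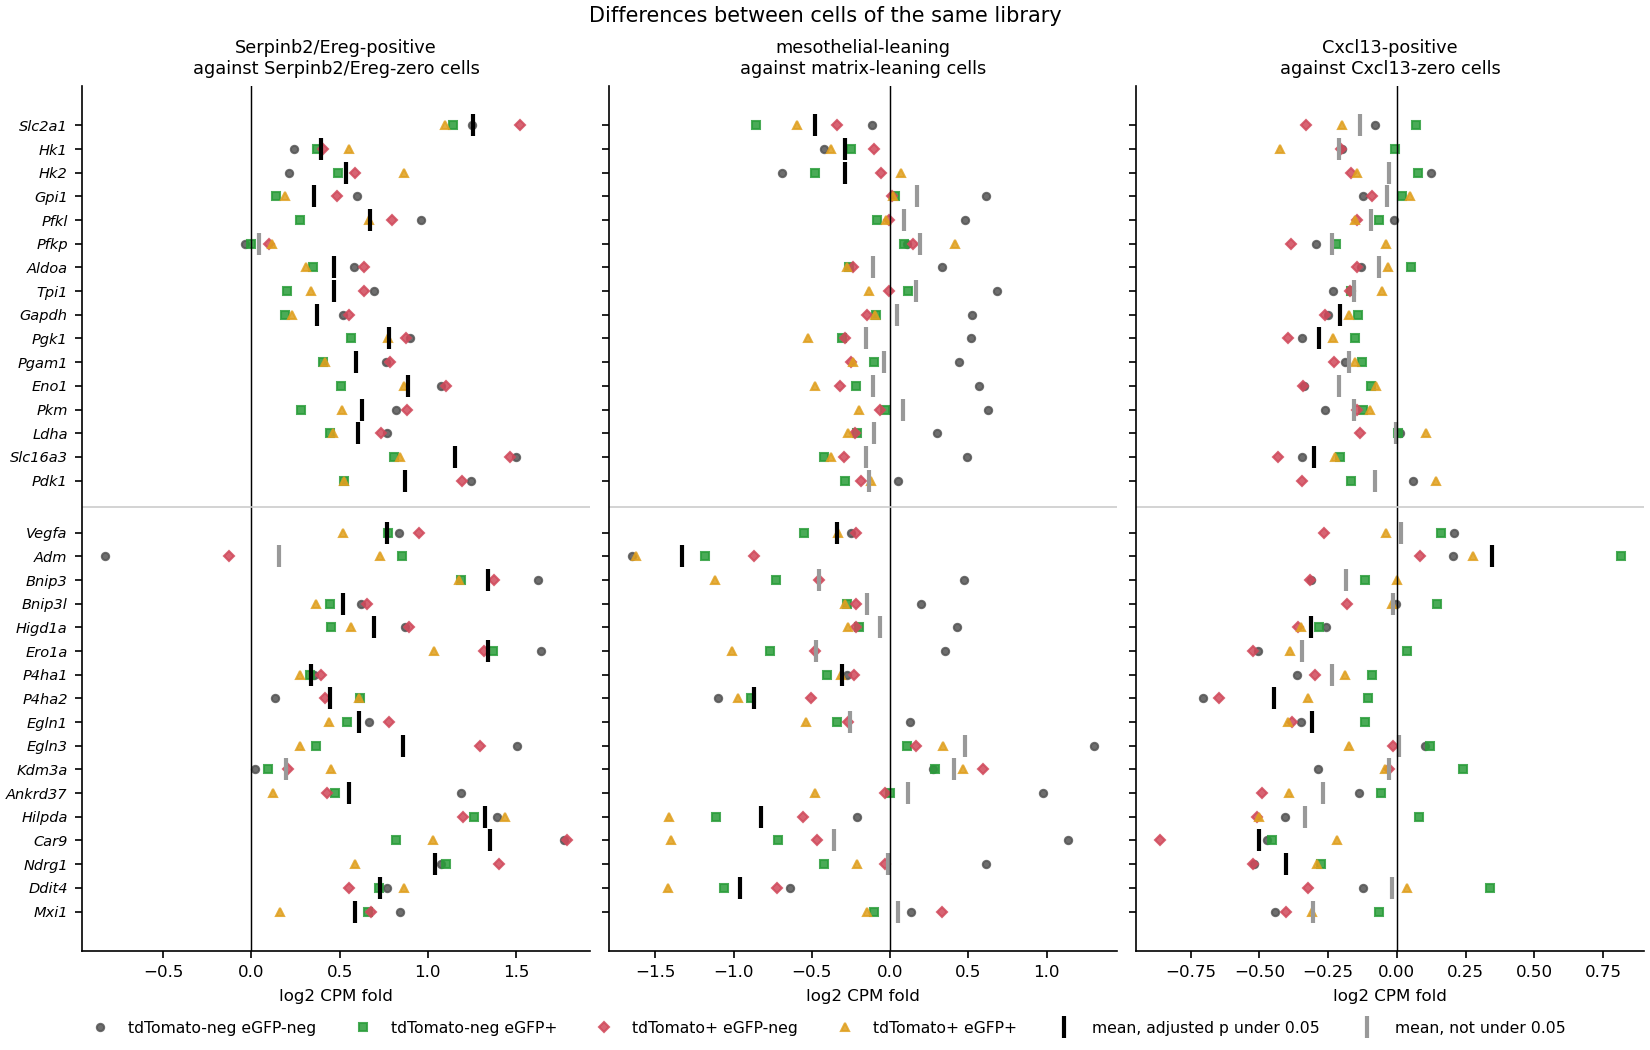
Log2 CPM fold of each gene between 2 classes of cells of the same library, with 1 point per library and a bar at the mean of 4 libraries (black where the edgeR adjusted p was under 0.05, grey where it was not). With Serpinb2/Ereg, at left, nearly all points lie to the right of 0 and 30 bars are black; with mesothelial against matrix markers, in the middle, the tdTomato-neg eGFP-neg points lie apart from the other libraries for many genes; with Cxcl13, at right, 9 bars are black and the folds are small.

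The start sites of the genes were also examined for the letters that HIF is known to bind. Many of the 33 genes are known HIF targets and were chosen by name, so many matches could be foreseen. The matches do not bear on the rise with Serpinb2/Ereg. The window was the 250 bases before each RefSeq start (GRCm38.p6, a different build from the GRCm39 named for the counts), 31 of the 33 genes had an entry, and a match was ACGTG or GCGTG on either strand, where CACGTG reads as ACGTG on both strands and counts on each. At least 1 start of 29 of the 31 genes held a match (93.5%), against 41.5% of all 27025 genes. ACGTG alone was in 20 (64.5%), against 18.5% of all genes. A gene with several starts has more windows to match, and these 31 genes had 45 windows where all genes had 32851. Counted by window, 75.6% held a match and 48.9% ACGTG, against 38.6% and 16.6% of all windows, while the longer CACGTG was in 4.44% against 6.02%. The windows of these genes are also rich in CG, with a median of 18 CG against 6 for all windows, and of all windows with 16 to 19 CG, 64.7% held a match, 25.0% ACGTG and 9.59% CACGTG. The windows below are those of Ldha, Slc2a1 and Bnip3, which rose in each library, of Car9, whose rise differed most between cell classes, and of Adm, which did not follow the rest. Each is written 5′ to 3′ on the strand of the gene and ends at the base before the start, with matches in capitals.
Ldha, GRCm38.p6 chr7:46845554-46845803, plus strand: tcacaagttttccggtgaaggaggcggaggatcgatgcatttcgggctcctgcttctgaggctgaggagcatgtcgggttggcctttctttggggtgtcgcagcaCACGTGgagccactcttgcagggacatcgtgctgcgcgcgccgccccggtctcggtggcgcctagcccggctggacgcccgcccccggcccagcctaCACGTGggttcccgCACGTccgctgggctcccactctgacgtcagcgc
Slc2a1, GRCm38.p6 chr4:119108495-119108744, plus strand: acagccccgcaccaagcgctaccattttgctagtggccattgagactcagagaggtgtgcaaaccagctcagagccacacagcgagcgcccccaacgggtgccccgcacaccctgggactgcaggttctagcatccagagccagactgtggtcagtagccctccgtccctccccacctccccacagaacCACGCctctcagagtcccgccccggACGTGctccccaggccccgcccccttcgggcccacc
Bnip3, GRCm38.p6 chr7:138909507-138909756, minus strand: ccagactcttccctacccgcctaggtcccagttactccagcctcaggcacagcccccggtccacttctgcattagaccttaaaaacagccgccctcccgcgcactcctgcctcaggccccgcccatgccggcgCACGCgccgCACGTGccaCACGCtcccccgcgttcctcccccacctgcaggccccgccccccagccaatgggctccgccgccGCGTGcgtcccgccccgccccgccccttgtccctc
Car9, GRCm38.p6 chr4:43506776-43507025, plus strand: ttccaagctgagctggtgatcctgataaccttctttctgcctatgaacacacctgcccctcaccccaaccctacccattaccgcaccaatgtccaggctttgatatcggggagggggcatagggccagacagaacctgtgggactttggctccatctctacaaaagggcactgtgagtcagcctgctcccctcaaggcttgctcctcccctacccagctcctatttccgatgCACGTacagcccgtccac
Adm, GRCm38.p6 chr7:110627407-110627656, plus strand: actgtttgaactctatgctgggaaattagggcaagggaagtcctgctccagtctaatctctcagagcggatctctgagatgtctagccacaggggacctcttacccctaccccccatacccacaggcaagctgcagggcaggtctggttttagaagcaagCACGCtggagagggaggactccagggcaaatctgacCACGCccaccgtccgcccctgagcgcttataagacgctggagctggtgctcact

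Ldha and Bnip3 held 5 matches each. The Ldha window held CACGTG at 2 places, and the window of its second start, not printed, held 1 GCGTG. Slc2a1 held 2 matches, at 61 and 36 bases before the start, and Car9 held 1, at 18 bases. Adm held 2 matches, both GCGTG, at 90 and 54 bases. A match is only a run of letters, and binding was not measured here.

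The rise with Serpinb2/Ereg was not the same in the 2 cell classes. In matrix-leaning cells the glycolytic sum was 4231, 5358, 3993 and 4567 CPM without Serpinb2/Ereg and 8231, 9159, 7804 and 7453 CPM with it, a mean log2 fold of 0.85 ± 0.13 (n = 4 libraries). In mesothelial-leaning cells it was 7486, 7236, 6346 and 6398 CPM without and 9047, 7951, 6548 and 6197 CPM with it, a mean log2 fold of 0.10 ± 0.14. Mesothelial-leaning cells with no Serpinb2/Ereg UMI thus stood above the corresponding matrix-leaning cells in each library. The hypoxia-response sum was higher by 0.85 ± 0.09 in matrix-leaning cells and by 0.41 ± 0.25 in mesothelial-leaning cells.

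**Figure D3:**
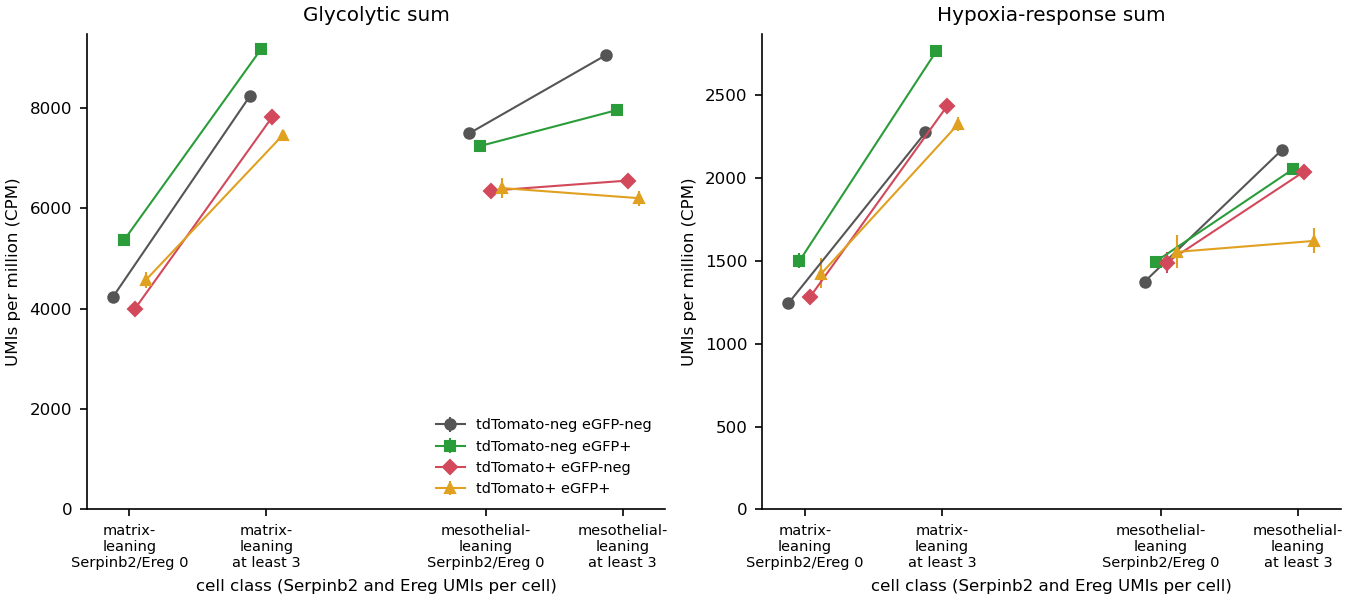
Glycolytic sum (left) and hypoxia-response sum (right), in CPM from 0, in matrix-leaning and mesothelial-leaning cells with no and with at least 3 Serpinb2 and Ereg UMIs; each line joins the 2 groups of 1 library and bars are exact 95% Poisson intervals. All 4 lines rise steeply for matrix-leaning cells, from 3993 to 5358 CPM up to 7453 to 9159 CPM in the left panel, and stay flatter for mesothelial-leaning cells.

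This difference of the differences was tested gene by gene, as an interaction in edgeR with library as a block, a test added after the pattern had been seen. The rise was smaller in mesothelial-leaning cells for 19 of 33 genes and larger for 1, where 7.28% of 13454 genes were called lower and 5.9% higher. The call depended on how the classes were set. With cells thinned to 2000 UMIs, the shallower cells left out, a split of the rest at 1 UMI against 0, and a new cut between matrix-leaning and mesothelial-leaning cells (-2.06 in place of -2.78 on the log2 scale), 0 of the 20 genes passed (smallest adjusted p = 0.0540), all 20 kept their sign, and Car9, for example, moved from -2.37 to -1.27. These changes were made together and were not told apart. In cells of 8000 to 12000 UMIs 17 of the 20 passed, and in cells with no cell cycle UMI 9 did, with Car9, Bnip3, Ldha and Pgk1 among those lost.

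The genes called were 12 of the 16 glycolytic genes and 7 of the 17 hypoxia-response genes. Car9 in matrix-leaning cells was 21.2, 26.0, 20.0 and 12.2 CPM with Serpinb2/Ereg and 2.18, 8.86, 2.50 and 7.52 CPM without, and in mesothelial-leaning cells 27.4, 14.9, 13.9 and 5.53 CPM against 15.8, 12.1, 13.7 and 3.20 CPM (interaction -2.37 on the log2 scale, adjusted p = 0.00696). Egln3 was 78.0, 132, 119 and 121 CPM against 8.31, 53.5, 28.2 and 57.1 CPM in matrix-leaning cells, and 106, 129, 120 and 139 CPM against 74.9, 116, 103 and 150 CPM in mesothelial-leaning cells (-1.85, adjusted p = 0.00562). Matrix-leaning cells without Serpinb2/Ereg held the least Egln3 of the 4 groups in each library. They also held the least Car9 in all libraries but tdTomato+ eGFP+, where both mesothelial-leaning groups were lower.

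Tpi1, the isomerase of the triose step, was 714, 818, 708 and 669 CPM against 336, 447, 354 and 368 CPM in matrix-leaning cells, and 854, 813, 636 and 526 CPM against 747, 790, 699 and 662 CPM in mesothelial-leaning cells, where it was lower with Serpinb2/Ereg in both tdTomato+ libraries (-1.09, adjusted p = 0.000601). Adm went the other way (1.24, adjusted p = 0.00729) but did not pass in cells of 8000 to 12000 UMIs (0.74, adjusted p = 0.0969). It was 61.2, 76.0, 85.9 and 59.6 CPM against 129, 67.7, 110 and 43.6 CPM in matrix-leaning cells, and 39.5, 42.2, 55.2 and 18.4 CPM against 19.4, 21.1, 26.7 and 19.2 CPM in mesothelial-leaning cells. Adm was thus highest in matrix-leaning cells without Serpinb2/Ereg of both eGFP-neg libraries.

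Slc2a1 and Hilpda rose in both classes and their difference did not pass. Slc2a1 rose by 1.41 ± 0.17 in matrix-leaning and 0.94 ± 0.39 in mesothelial-leaning cells (interaction -0.44, adjusted p = 0.131), and Hilpda by 1.22 ± 0.17 and 1.07 ± 0.33 (-0.17, adjusted p = 0.721). When mesothelial-leaning cells were fitted alone, 22 of the 30 genes were still called higher with Serpinb2/Ereg, and those lost were Gpi1, Pfkl, Aldoa, Tpi1, Gapdh, Pkm, Higd1a and Egln3.

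In the sums, the comparison of mesothelial-leaning with matrix-leaning cells as such gave smaller differences than that with Serpinb2/Ereg. The glycolytic sum was 8281, 7622, 6371 and 6098 CPM in mesothelial-leaning and 5995, 8365, 7121 and 7015 CPM in matrix-leaning cells, higher in the tdTomato-neg eGFP-neg library and lower in the other 3. The hypoxia-response sum was 1789, 1812, 1843 and 1575 CPM against 1684, 2489, 2217 and 2182 CPM, with the same split between libraries. Median depth split in this way too. It was 6157, 7744, 7255 and 5308 UMIs in mesothelial-leaning and 5563.5, 9547, 9621 and 10202 in matrix-leaning cells. How far depth took part in the split of the sums was not tested.

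Of the 33 genes 9 were lower in mesothelial-leaning cells and 0 higher by edgeR, where 14.7% of 15214 genes were lower and 12.8% higher. The count of higher genes was 1 at an unadjusted p under 0.05, and 0 by DESeq2. In cells of 8000 to 12000 UMIs 7 of the 9 lower genes passed. When the tdTomato-neg eGFP-neg library was left out, 26 genes were lower, and without the tdTomato-neg eGFP+ library 3 were. Cell cycle genes were higher in mesothelial-leaning cells of every library (626, 675, 654 and 856 CPM against 402, 428, 497 and 428 CPM), and in cells with no cell cycle UMI 4 of the 9 genes passed.

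The genes that were lower came from several roles. Adm was 30.0, 32.2, 47.3 and 17.9 CPM in mesothelial-leaning and 94.0, 72.9, 86.5 and 55.3 CPM in matrix-leaning cells (mean log2 fold -1.33 ± 0.37, adjusted p = 0.000269), without overlap between the classes. P4ha2, a collagen prolyl hydroxylase subunit, was 61.9, 65.9, 73.5 and 60.4 CPM against 133, 122, 105 and 118 CPM (-0.87 ± 0.25, adjusted p = 0.000407), again without overlap. Ddit4 was 48.0, 45.8, 46.8 and 36.3 CPM against 74.8, 95.7, 77.4 and 97.4 CPM (-0.96 ± 0.36, adjusted p = 0.00168).

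Hilpda, Slc2a1, Vegfa, P4ha1, Hk2 and Hk1 completed the list, at mean folds from -0.82 to -0.29, and Hk2 was higher in mesothelial-leaning cells of the tdTomato+ eGFP+ library alone. Gpi1, Pfkp, Egln3 and Kdm3a were higher in mesothelial-leaning cells of 4 of 4 libraries but did not pass, with 0.48 ± 0.56 for Egln3 (adjusted p = 0.278) and 0.41 ± 0.15 for Kdm3a (adjusted p = 0.0543). Among other hypoxia-induced genes 19 of 32 were lower and 0 higher by edgeR. They included Stc1 (fitted log2 fold -1.77, adjusted p = 0.000322), Nos2 (-1.68, adjusted p = 0.00067) and the lysyl oxidase gene Lox (-1.39, adjusted p = 7.38e-05), genes of the secreted hormone stanniocalcin, of nitric oxide and of collagen cross-linking. Of the HIF alpha subunit genes, Hif1a (-0.81, adjusted p = 0.000725) and Epas1 (-1.16, adjusted p = 0.00188) were lower, and Hif3a did not pass (0.33, adjusted p = 0.514). The prolyl hydroxylase gene Egln2 (0.31, adjusted p = 0.0166) and Arnt2 (1.77, adjusted p = 0.00712) were higher, the latter at 2.33 CPM or less in every library.

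The last question was how the genes stood in cells that express Cxcl13. Here the differences were small. The glycolytic sum was 6206, 7515, 6544 and 6469 CPM in Cxcl13-positive and 7100, 7984, 7584 and 6873 CPM in Cxcl13-zero cells (mean log2 fold -0.15 ± 0.07, n = 4 libraries), and the hypoxia-response sum was 1492, 2027, 1937 and 1833 CPM against 1773, 2060, 2448 and 2112 CPM (-0.20 ± 0.13). Both sums were lower in Cxcl13-positive cells of 4 of 4 libraries.

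By edgeR 8 of 33 genes were lower and 1 higher, where 3.7% of 13016 genes were lower and 4.49% higher. The genes that were lower were Car9 (fitted log2 fold -0.54), P4ha2 (-0.40), Ndrg1 (-0.36), Higd1a (-0.25), Slc16a3 (-0.25), Egln1 (-0.25), Pgk1 (-0.22) and Gapdh (-0.15), with adjusted p-values from 0.00495 to 0.0313. Higd1a, which protects mitochondria in low oxygen, was 336, 326, 286 and 323 CPM against 402, 396, 367 and 411 CPM, without overlap. Adm was the gene that was higher, at 75.2, 77.4, 80.7 and 50.8 CPM against 65.3, 44.0, 76.2 and 41.9 CPM (adjusted p = 0.0485).

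These calls varied with the libraries and cells read. In cells of 8000 to 12000 UMIs 2 of the 9 remained, and without the tdTomato+ eGFP-neg library 2 genes were lower, without the tdTomato-neg eGFP-neg or the tdTomato+ eGFP+ library 3, and without the tdTomato-neg eGFP+ library 12. In matrix-leaning cells alone 16 genes were lower and 0 higher, with all 8 of the lower genes kept. Positive cells were again deeper (7732, 9704.5, 9538 and 10538 UMIs against 5498, 8155, 8053.5 and 7860.5).

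Across single cells thinned to 2000 UMIs, Cxcl13 had at most a weak relation to either sum, strongest and negative in the tdTomato+ eGFP-neg library. Over 8383, 5206, 4435 and 779 cells Pearson's r was -0.038, -0.035, -0.14 and -0.059 for the glycolytic sum and -0.045, 0.0079, -0.15 and -0.059 for the hypoxia-response sum. The 2 sums followed each other more closely, at 0.41, 0.49, 0.53 and 0.49 (Spearman's rho 0.43, 0.51, 0.55 and 0.52). Cells of a library share its preparation, and these values are descriptions. Of 32 other hypoxia-induced genes tested, 5 were lower in Cxcl13-positive cells and 1 higher by edgeR. Pgf, a placental growth factor of the VEGF family (fitted log2 fold -1.36, adjusted p = 0.000403), Car12 (-1.03, adjusted p = 0.0118), Loxl2 (-0.41), Plod1 (-0.38) and Lox (-0.35) were lower, and Gbe1 was higher (0.65, adjusted p = 0.000116).

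To see what accompanied the response, cells of each library were ranked, after thinning, on their hypoxia-response sum without the gene being read, and those above the upper tertile (1921, 1606, 1433 and 188 cells) were set against those at or below the lower one (4354, 2295, 1975 and 320). Since the ranking used the genes themselves, the folds are a description with no test. All 33 genes were higher in 4 of 4 libraries, with a median log2 fold of 1.27, where 7.37% of 9762 genes passed 0.25 in the mean and 10.5% were higher in 4 libraries. The mean folds were largest for Car9 (3.04), Ero1a (2.63), Ndrg1 (2.41), Ankrd37 (2.39) and Bnip3 (2.20), and smallest for Kdm3a (0.36). Of the glycolytic genes, which the ranking did not use, Slc2a1 (1.96) and Slc16a3 (1.81) stood highest and Hk2 (0.48), the inducible hexokinase, lowest.

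Serpinb2 (1.42 ± 0.20) and Ereg (1.05 ± 0.18) were higher in the same cells in each library, Hif1a was higher by 0.55 ± 0.19, and Cxcl13 stood at -0.34 ± 0.46, higher in the tdTomato-neg eGFP+ library alone. Adm stood near 0 in tdTomato-neg eGFP-neg cells alone, at 0.052 there against 2.81, 1.88 and 2.46 in the other libraries. Among other hypoxia-induced genes, Pgf (3.94 ± 0.69) and Nos2 (3.24 ± 0.52) had the largest folds. High cells were deeper in each library before thinning, at a median of 8198, 9749, 9523 and 10506 UMIs against 6416, 9059, 9295 and 9800.5.

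Outside all lists, the genes that accompanied the response most strongly, with at least 20 CPM and the same sign in 4 libraries, were Ndufa4l2 (2.50 ± 0.11), a mitochondrial protein known as a HIF target, Prelid2 (2.41 ± 0.21), Inhba (2.13 ± 0.38), which encodes the activin A subunit, Hdac9 (2.13 ± 0.45), a histone deacetylase, Mt1 (1.86 ± 0.48), a metal-binding protein, Rgcc (1.78 ± 0.46) and Gys1 (1.75 ± 0.19), the muscle glycogen synthase. Igfbp5 (-1.97 ± 0.86), an IGF-binding protein, and Pi16 (-1.97 ± 0.88), a marker of universal fibroblasts, were lower. The rule also took the immunoglobulin gene Ighm, at 1.13, 1.02, 47.2 and 0 CPM in high cells and 29.2, 51.1, 72.6 and 0.57 CPM in low cells. Its mean fold has no finite value, and its place and its sign in the tdTomato+ eGFP+ library rest on that count of 0.

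**Figure D4:**
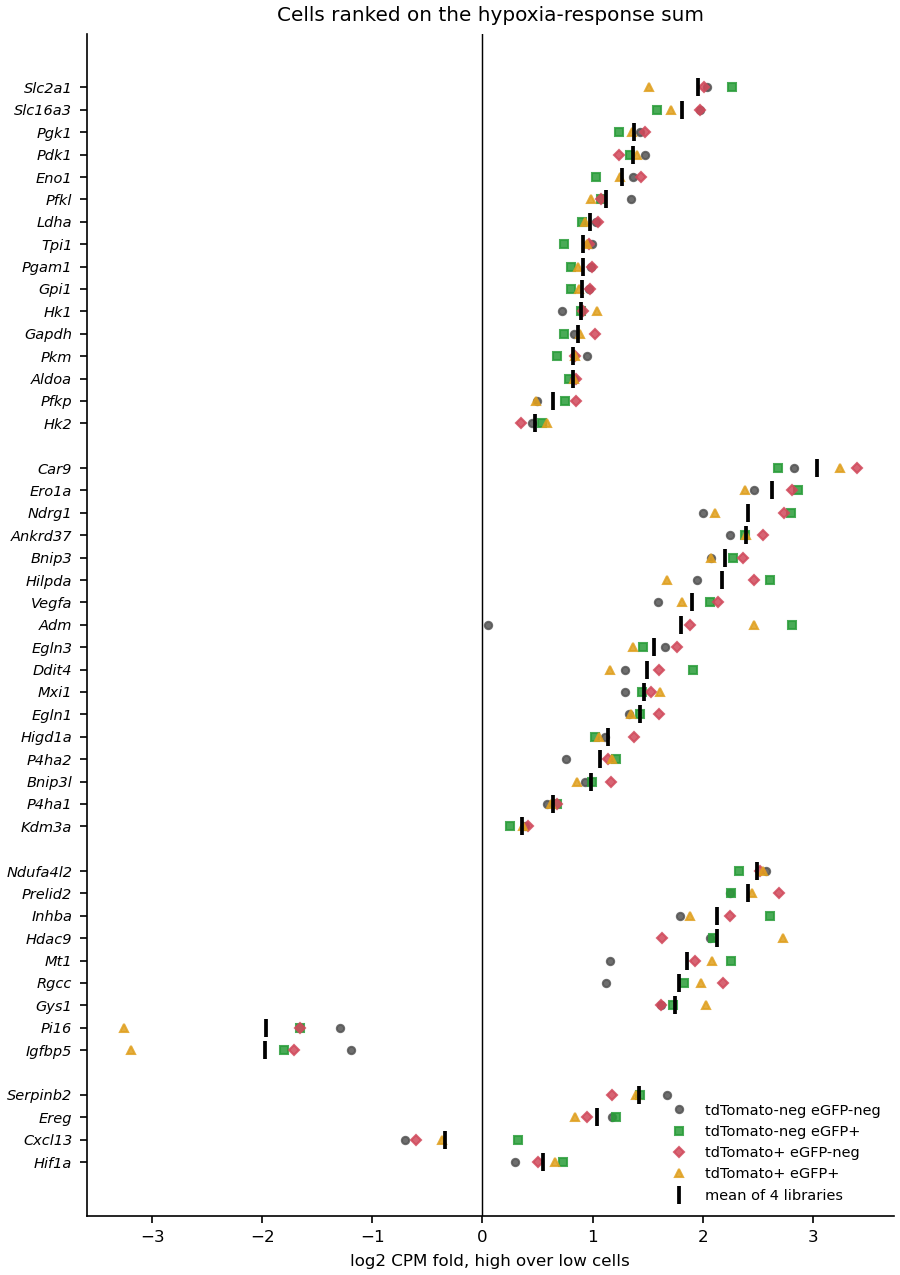
Log2 CPM fold between cells with a high and a low hypoxia-response sum, with 1 point per library and a bar at the mean of 4 libraries; from top to bottom, the glycolytic genes, the hypoxia-response genes (each read without its own UMIs in the ranking), the leading genes outside the lists, and Serpinb2, Ereg, Cxcl13 and Hif1a. All glycolytic and hypoxia-response points lie to the right of 0, with Adm in the tdTomato-neg eGFP-neg library nearest to it at 0.052.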

How the data were processed

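Single-cell RNA-seq was performed on 4 sorted CAF populations, with 1 10x 3′ library each. Tumors were digested with collagenase, PDPN-positive cells were enriched on beads, and live cells were sorted. The authors deposited filtered matrices of UMI counts per gene and cell. The submitters' processing notes name Cell Ranger 10.0.0, STAR, GRCm39 and Seurat 5.0, whereas the matrix header names Cell Ranger 8.0.0. Libraries were grouped by the reporter labels, and all columns were used. The 33 genes and all lists were chosen with earlier results of these data known, and the interaction test was chosen after seeing the data.

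Counts were summed over kept cells and divided by their total (CPM). The 4 libraries gave 75633344, 55742738, 45979572 and 8629965 UMIs in kept cells. Exact Poisson and conditional binomial 95% intervals cover counting error only. Library folds were called past 0.25 (log2) among genes with at least 5 CPM. Cells were split on a matrix against mesothelial score (Otsu's cut) and on Serpinb2/Ereg or Cxcl13 UMIs (at least 3 against 0; cells with 1 or 2 were left out). Sums per class and library were tested with edgeR 4.0.16 (R 4.3.3; quasi-likelihood, library as block, Benjamini-Hochberg adjusted p under 0.05 over all genes). A mean ± SD is of raw CPM folds over libraries, and a fitted fold is edgeR's, with TMM scaling. In the mesothelial comparison Gapdh, Pkm and Pfkl, none called, had opposite signs on the 2 scales. No doublets were removed in the main analysis. Between 2 and 21 barcodes were shared by each pair of libraries.

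Named outside the 33 genes were at most 8 genes of a list per comparison, by fold among those called, and the 10 genes outside all lists with the largest mean fold between cells of high and low hypoxia-response sum. In the Serpinb2/Ereg comparison, 1 gene that this rule names is not reported here. HIF genes named by level were chosen after their values were seen. On simulated counts, the Serpinb2/Ereg test recovered 19% of genes changed by 0.5 and 75% of those changed by 1 (log2), and the interaction 1% and 40%. The simulation gave all genes the same set dispersion, not estimated from these data, so these rates are not the power of the tests here. Alternatives were DESeq2 1.42.0, other filters, cell subsets, thinning to 2000 UMIs (classes then split at 1 UMI against 0, with a new score cut), no block and leaving out each library. CPM and tests used Python 3.11.15, numpy 2.4.6, scipy 1.17.1 and pandas 2.3.3, and plots matplotlib 3.10.9.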

Additional observations from a re-analysis of the deposited data

Results flagged for a closer look

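The Serpinb2/Ereg difference differed between the cell classes for 20 genes, by the edgeR interaction test with library as a block. On the log2 scale it was smaller in mesothelial-leaning cells for Gpi1 (-0.84), Pfkl (-1.11), Aldoa (-0.70), Tpi1 (-1.09), Gapdh (-0.88), Pgk1 (-0.96), Pgam1 (-0.70), Eno1 (-1.07), Pkm (-0.97), Ldha (-0.67), Slc16a3 (-1.17), Pdk1 (-0.78), Bnip3 (-1.33), Bnip3l (-0.49), Higd1a (-0.97), Egln1 (-0.54), Egln3 (-1.85), Car9 (-2.37) and Ndrg1 (-0.91), and larger for Adm (1.24). None of the 20 passed when classes were set from thinned cells.

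The fold of mesothelial-leaning over matrix-leaning cells went opposite ways between libraries. For the glycolytic sum it was 0.47 in the tdTomato-neg eGFP-neg library and -0.13, -0.16 and -0.20 in the tdTomato-neg eGFP+, tdTomato+ eGFP-neg and tdTomato+ eGFP+ libraries. For the hypoxia-response sum it was 0.087 against -0.46, -0.27 and -0.47. Median depth of the cell classes split between libraries in the same way. With 1 library each, these differences were not tested.

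The glycolytic fold over tdTomato-neg eGFP-neg also went opposite ways in cells with Xist but no Y-linked UMI and in cells with Y-linked but no Xist UMI. It was 0.23 and -0.18 for tdTomato+ eGFP-neg, and 0.24 and -0.094 for tdTomato+ eGFP+ cells. This difference was not tested.

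Cells left out of the analysis also held these genes. The 472 Pax3-positive cells had a glycolytic sum of 17703 CPM and a hypoxia-response sum of 1876 CPM, with Egln3 at 12.8 and Slc16a3 at 15.6 CPM. The 423 Ptprc-positive cells had sums of 7357 and 1978 CPM.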

How the results depend on the processing

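The sums between libraries moved with the cells read, and the cause was not tested. For tdTomato-neg eGFP+ over tdTomato-neg eGFP-neg the glycolytic fold of 0.17 became 0.168 with the expected doublets removed, 0.45 in cells with no cell cycle UMI, 0.48 in matrix-leaning cells, -0.12 in mesothelial-leaning cells, 0.36 in Xist-only cells, 0.097 in Y-only cells, 0.22 in cells of 8000 to 12000 UMIs, 0.24 without melanoma or immune marker UMIs, 0.32 as a mean over cells and 0.11 with TMM scaling, and the hypoxia-response fold of 0.26 became, in that order, 0.245, 0.49, 0.56, 0.018, 0.29, 0.21, 0.28, 0.24, 0.32 and 0.19. For tdTomato+ eGFP-neg the glycolytic fold became 0.22 with no cell cycle UMI, 0.25 in matrix-leaning, -0.38 in mesothelial-leaning, 0.23 in Xist-only, -0.18 in Y-only, 0.034 in the depth window, 0.061 without melanoma or immune UMIs, 0.12 as a mean over cells and -0.059 with TMM, and the hypoxia-response fold 0.49 with no cell cycle UMI, 0.40 and 0.043 in the cell classes, 0.29 in Xist-only, 0.35 in the window, 0.43 as a mean over cells and 0.25 with TMM. For tdTomato+ eGFP+ the glycolytic fold became 0.14 with no cell cycle UMI, 0.23 and -0.44 in the cell classes, 0.24 in Xist-only, -0.094 in Y-only, -0.062 in the window, 0.034 without melanoma or immune UMIs and 0.071 as a mean over cells, and the hypoxia-response fold 0.27, 0.37 and -0.18, 0.29, 0.32 and 0.12 for the first 6 of these and 0.32 as a mean over cells.

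Counts of genes past 0.25 moved likewise. In tdTomato-neg eGFP+ 8 were higher in mesothelial-leaning cells and 0 past 1, and 4 were lower in mesothelial-leaning cells, 2 in Y-only cells, the depth window, without melanoma or immune UMIs and with TMM, and 0 past 1. In tdTomato+ eGFP-neg 26 were higher in matrix-leaning cells and 1 past 1, and 0 were lower with no cell cycle UMI, 1 in matrix-leaning, 8 in mesothelial-leaning, 1 in Xist-only and 0 past 1. In tdTomato+ eGFP+ 23 were higher in matrix-leaning, 5 in mesothelial-leaning, 20 in Xist-only and 0 past 1, and 1 was lower with no cell cycle UMI, 1 in matrix-leaning, 16 in mesothelial-leaning, 1 in Xist-only, 3 in Y-only, 3 without melanoma or immune UMIs, 3 as a mean over cells and 0 past 1.

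Between cell classes, the 9 genes lower in mesothelial-leaning cells were 5 with no library block, 4 with no cell cycle UMI and 3 to 26 in leave-one-out fits. The 30 Serpinb2/Ereg calls were 22 with no block and 29 to 30 in leave-one-out fits. For Cxcl13 the 1 higher gene was 0 with no block, with no cell cycle UMI, in either cell class, in the depth window and without melanoma or immune UMIs, and 0 to 1 in leave-one-out fits, and the 8 lower genes were 0 with no block, 16 in matrix-leaning cells, 2 in the window, 13 with thinned classes and 2 to 12 in leave-one-out fits. For the interaction the 1 higher gene was 2 with no filter, 0 with no block and 0 with thinned classes, and the 19 lower genes were 5 with no block, 8 with no cell cycle UMI and 0 with thinned classes. The cause of these changes was not tested.

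Of single genes past 0.25 between libraries or called between cell classes, 27 values for 18 results changed sign; smaller folds, such as those of Gapdh and Car9 in tdTomato-neg eGFP+, are not counted here. In Xist-only cells these were Adm (-0.28, tdTomato+ eGFP-neg), Ankrd37 (0.079) and Car9 (0.0021, both tdTomato+ eGFP+); in Y-only cells Adm (0.31 and 0.67 in the eGFP+ libraries) and Ankrd37 (0.12); in the depth window Adm (0.040, tdTomato-neg eGFP+) and Pdk1 (-0.24, tdTomato+ eGFP+); with no cell cycle UMI Adm (-0.0020); in matrix-leaning cells Adm (-0.12), Ankrd37 (0.33) and Car9 (0.18); and as a mean over cells Adm (-0.34) and Ankrd37 (0.038). In mesothelial-leaning cells they were Tpi1 (-0.0026), Adm (0.10), Bnip3 (-0.23) and Ero1a (-0.035) in tdTomato-neg eGFP+, Bnip3 (-0.24) and Bnip3l (-0.00045) in tdTomato+ eGFP-neg, Slc16a3 (-0.082), Bnip3 (-0.79), Egln1 (-0.16), Hilpda (-0.63) and Ddit4 (-0.40) in tdTomato+ eGFP+, and Tpi1 (-0.0077) and Gapdh (-0.033) with Serpinb2/Ereg. The cause was not tested.

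Between the sorted populations, no paired analysis was possible because each group has 1 library; the cell class comparisons are paired within library. The tdTomato+ eGFP+ library has the fewest cells (853) and UMIs in all, which limits genes of few UMIs such as Car9. Libraries differ in sort gate, depth and cell make-up at once, which cannot be told apart from the reporter.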
